A study of Homo sapiens with 12 samples.

Results

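The genes described here were 38 members of the immediate early and MAPK feedback programme, selected by gene symbol and each found once among the 60617 Ensembl gene IDs of the count tables. The members and the further gene lists below were chosen with earlier results of these data known. Their shares set beside those of all genes are therefore descriptions, not independent tests. They comprised 8 AP-1 subunits, 4 factors of the EGR and SRF kind, 4 KLF factors, 3 factors of the MYC and NR4A kind, 3 IER proteins, 3 regulators of mRNA decay and growth (ZFP36, ZFP36L1 and BTG1), 6 dual-specificity MAPK phosphatases, 4 Sprouty and SPRED inhibitors and 3 ERK output genes (ETV4, ETV5 and PHLDA1). All 12 RNA-seq libraries came from 769-P, an established line of human clear cell renal carcinoma grown in RPMI1640 with 10% serum. Cells labelled siDRAIC (n = 3) were set against cells labelled siDRAIC-NC (n = 3), and cells labelled sihnRNPA2B1 (n = 3) against cells labelled sihnRNPA2B1-NC (n = 3). DRAIC is a long non-coding RNA and hnRNPA2B1 is an RNA-binding protein of the spliceosome-associated hnRNP family. The NC groups were taken as the control of the experiment whose name they carry; the labels do not give the meaning of NC, the siRNA sequences, the dose or the time after transfection. A single cell line was used, no stimulus to the MAPK pathway is named in the labels, and the labels do not say whether libraries of a group came from separate cultures, so p-values measure the spread between these libraries, which may be technical.

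Immediate early genes are transcribed within minutes of a growth factor or stress signal, from promoters already bound by factors such as SRF and CREB that the ERK, JNK and p38 MAP kinases act on, without a need for new protein. Many of their products are transcription factors, among them the FOS and JUN proteins that pair to form AP-1. Other products end the signal: DUSP phosphatases remove phosphate from MAP kinases, Sprouty and SPRED proteins act upstream at the level of RAS and RAF, and ZFP36 proteins shorten the life of the short-lived mRNAs themselves.

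Total counts ran between 30798303 and 42760528 per library. HNRNPA2B1 averaged 291 ± 16.7 normalised counts (CPM, the count divided by the library total and scaled to 1e+06 counts) in sihnRNPA2B1 cells and 419.6 ± 21.0 CPM in sihnRNPA2B1-NC cells (SD, n = 3 each), a partial reduction. DRAIC had 3, 6 and 0 counts in the libraries labelled siDRAIC and 2, 1 and 2 counts in those labelled siDRAIC-NC, so a reduction was not detectable at this depth and the groups are called by their labels. Of 11 kidney and renal carcinoma markers, 10 reached 1 CPM in every group and CA9 was at or near 0; the list summed to 3699 to 4085 CPM in siDRAIC, 3738 to 4174 CPM in siDRAIC-NC, 2246 to 2359.6 CPM in sihnRNPA2B1 and 2205 to 2246 CPM in sihnRNPA2B1-NC libraries. Fibroblast markers summed to 7.62 to 13.5 CPM in siDRAIC and 1.503 to 4.60 CPM in siDRAIC-NC libraries, and to 3.04 to 3.38 CPM in sihnRNPA2B1 and 1.88 to 2.75 CPM in sihnRNPA2B1-NC libraries. Nearly all of this was COL1A1, with means of 9.88 CPM in siDRAIC, 2.63 in siDRAIC-NC, 3.16 in sihnRNPA2B1 and 2.20 in sihnRNPA2B1-NC cells. COL1A2, LUM, DCN and PDGFRA were at or near 0. Blood and endothelial markers each summed to less than 1 CPM in all 12 libraries. Hepatocyte markers, of which only SERPINA1 reached 1 CPM, summed to 170.4 to 199 CPM in siDRAIC and 206 to 356 CPM in siDRAIC-NC libraries, and to 29.1 to 31.8 CPM in sihnRNPA2B1 and 52.5 to 56.7 CPM in sihnRNPA2B1-NC libraries. The part of these markers in the results below was not tested. Mitochondrially encoded mRNAs took 7.67% to 9.26% of counts in siDRAIC and 6.79% to 7.41% in siDRAIC-NC libraries, and 6.23% to 6.48% in sihnRNPA2B1 and 5.10% to 5.21% in sihnRNPA2B1-NC libraries, and their part was not tested either. Replicate 1 of siDRAIC-NC stood apart from the other two libraries of its group: without it edgeR called 6.26% of all genes in that experiment, against 0.713% with it. The counts of called members, the members' median and the AP-1 shares of that experiment are also given without it.

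The members spanned a wide range of expression. Levels were compared between genes as CPM per kilobase of annotated exon, averaged over the 4 groups. FOSL1, the AP-1 subunit also called FRA1, was the most abundant at 410.2 CPM per kb, followed by DUSP1 at 195 CPM per kb, JUN at 157 CPM per kb, MYC at 146 CPM per kb and JUNB at 71.6 CPM per kb. This order is pooled and differed between groups, although FOSL1 was first in all 4. In siDRAIC cells JUNB, at 71.4 CPM per kb, stood above ZFP36L1 at 66.0 and JUN at 55.3 CPM per kb. In siDRAIC-NC cells MYC, at 77.6 CPM per kb, stood above DUSP1 at 72.8 CPM per kb. The 5 least abundant members were FOS, NR4A2, EGR2, NR4A1 and EGR3. FOS was at 0.198, NR4A2 at 0.157, EGR2 at 0.0931, NR4A1 at 0.0153 and EGR3 at 0.00783 CPM per kb. EGR3 had between 0 and 8 counts in a library and NR4A1 between 0 and 10 counts; neither passed the filter on low counts in any comparison, and EGR2 did not pass it in the hnRNPA2B1 experiment. Exons of JUNB, IER2, IER3, BTG1, DUSP6, ETV4, ETV5, PHLDA1, EGR3 and NR4A1 overlap those of other annotated genes, and their counts may hold reads of those genes. The tests covered 36 members in the siDRAIC experiment, 35 in the hnRNPA2B1 experiment and 36 when all 12 libraries were fitted. Within a group, the members' median coefficient of variation was 15.7% in siDRAIC, 14.3% in siDRAIC-NC, 5.08% in sihnRNPA2B1 and 5.69% in sihnRNPA2B1-NC libraries, where all genes of at least 1 CPM had medians of 14.9%, 17.6%, 5.47% and 7.22% in the same groups.

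AP-1 transcripts in 769-P cells were made up almost wholly of a few subunits. Among the 4 FOS-family genes, FOSL1 held 83.2% ± 1.35 of the CPM per kb in siDRAIC and 89.6% ± 1.97 in siDRAIC-NC libraries, and 84.6% ± 0.729 in sihnRNPA2B1 and 88.1% ± 0.201 in sihnRNPA2B1-NC libraries (SD, n = 3 each). FOSL2, a related subunit, took nearly all of the remainder, at 16.6% ± 1.26 in siDRAIC against 10.3% ± 1.95 in siDRAIC-NC and 15.2% ± 0.701 in sihnRNPA2B1 against 11.8% ± 0.199 in sihnRNPA2B1-NC libraries. FOS and FOSB together stayed below 1% in every library. The JUN family was split more evenly, and the share of JUN was lower in every library of the siDRAIC experiment than in every library of the hnRNPA2B1 experiment. JUN held 32.0% ± 2.34 of the family in siDRAIC and 42.0% ± 3.27 in siDRAIC-NC libraries, but 63.0% ± 0.847 in sihnRNPA2B1 and 65.2% ± 0.830 in sihnRNPA2B1-NC libraries. JUNB, which often opposes JUN at shared targets, held 41.2% ± 2.85 in siDRAIC and 30.7% ± 3.99 in siDRAIC-NC libraries, and 22.7% ± 0.486 in sihnRNPA2B1 and 19.9% ± 0.526 in sihnRNPA2B1-NC libraries. In each experiment the share of FOSL1 was lower, and the share of FOSL2 and of JUNB higher, in all 3 siRNA libraries than in all 3 control libraries. Over siDRAIC-NC replicates 2 and 3 alone FOSL1 held 90.7% of its family, FOSL2 9.23%, JUN 40.5% and JUNB 32.8%. These shares are descriptions and were not tested.

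**Figure D1:**
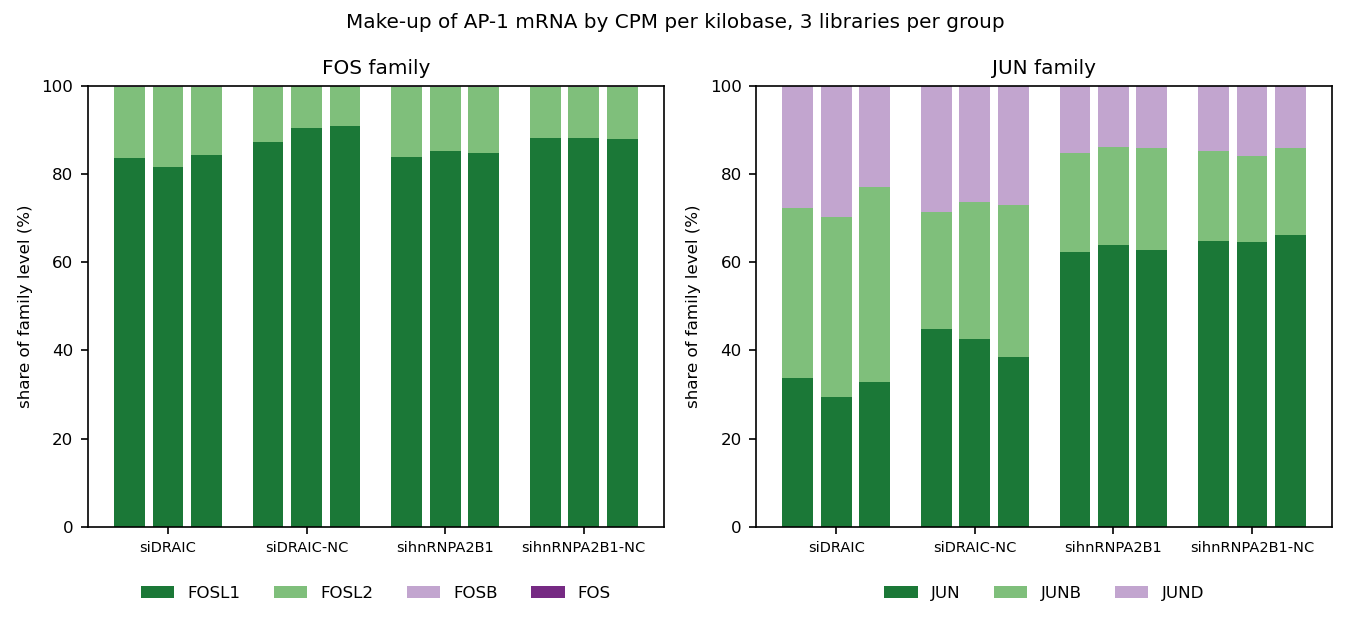
Share of each subunit in the FOS family and in the JUN family, in percent of the family's summed CPM per kb (vertical axis), for each of the 12 libraries (horizontal axis). FOSL1 fills most of the FOS-family bar everywhere, FOS and FOSB are too small to see, and JUN takes 32.0% on average in siDRAIC and 63.0% in sihnRNPA2B1 libraries.

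Knockdown of hnRNPA2B1 was accompanied by lower levels of many members. In sihnRNPA2B1 against sihnRNPA2B1-NC cells, 17 members fell and 2 rose among 35 tested (edgeR quasi-likelihood test, Benjamini-Hochberg adjusted p under 0.05), which is 54.3% of the members tested. Over all 15710 genes tested, 30.4% were called, 15.4% lower and 15.1% higher. The members that fell included all 4 Sprouty and SPRED inhibitors, 3 of 4 KLF factors, 3 of 6 MAPK phosphatases, both ETV factors, FOSL1, FOSL2, SRF, MYC and IER5. The changes were small: the median log2 fold change of the tested members was -0.16, against 0.01 for all genes tested, and 29 of 35 estimates lay below 0. In bulk RNA, fewer cells that express a gene and less RNA of it per cell cannot be told apart.

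Among the AP-1 subunits, FOSL1 was affected most. The gene lies at chr11:65892049-65900573 on the minus strand (GRCh38, GENCODE 29). FOSL1 stood at 750.1, 827 and 806 CPM in sihnRNPA2B1 cells and 1169.6, 1205 and 1117 CPM in sihnRNPA2B1-NC cells. The groups did not overlap, with a fall of 0.59 on the log2 scale (SE 0.05, edgeR adjusted p = 6.53e-10). FOSL2 stood at 540.3, 534 and 545 CPM against 591, 599.9 and 578 CPM in the controls, a smaller fall of 0.16 on the log2 scale (SE 0.05, edgeR adjusted p = 0.0118). The other 6 subunits did not pass the test. JUN, the most abundant JUN-family gene in this experiment, had 866, 877 and 879.8 CPM in sihnRNPA2B1 and 923, 979.8 and 879 CPM in sihnRNPA2B1-NC cells. JUNB had 161, 157 and 168 CPM against 149.7, 151 and 135 CPM. ATF3, a stress-induced factor that pairs with JUN proteins, had 252, 247 and 266 CPM against 228, 237 and 218 CPM. JUNB and ATF3 lay above the controls in all 3 libraries in CPM, which does not use the library scaling of the test. Their estimates were 0.12 and 0.13 on the log2 scale, with edgeR adjusted p = 0.112 and 0.0693, and JUN overlapped its controls. JUND had 111, 99.5 and 104 CPM against 110.2, 127 and 98.8 CPM and FOSB had 4.70, 3.45 and 4.31 CPM against 3.86, 4.90 and 4.06 CPM, both with overlapping groups. FOS had between 0.587 and 0.727 CPM in sihnRNPA2B1 cells and between 0.520 and 1.00 CPM in the controls.

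SRF, which binds the CArG box of many immediate early promoters, had 132, 134 and 128 CPM in sihnRNPA2B1 cells and 169, 177 and 158 CPM in sihnRNPA2B1-NC cells, with a log2 fold change of -0.39, SE 0.06, edgeR adjusted p = 4.49e-06. EGR1, a zinc finger factor and textbook SRF target, did not pass the test. Its estimate was in the other direction, at 10.5 to 12.6 CPM in sihnRNPA2B1 and 8.08 to 9.81 CPM in sihnRNPA2B1-NC cells (log2 fold change 0.29, edgeR adjusted p = 0.0525). Of the KLF zinc finger factors, KLF6 was lowered most clearly, at 519, 544 and 526 CPM against 666, 666 and 686 CPM (log2 fold change -0.38, SE 0.05, edgeR adjusted p = 4.83e-07). KLF10, a TGF-beta-inducible factor, had 295, 312 and 313 CPM against 339, 326 and 333 CPM. KLF2 had 2.61, 2.44 and 2.702 CPM against 4.03, 3.51 and 3.81 CPM. Both fell, by 0.15 and 0.58 on the log2 scale (edgeR adjusted p = 0.0218 and 0.0124). KLF10 did not pass without sihnRNPA2B1 replicate 1 or 2 or sihnRNPA2B1-NC replicate 1, and KLF2 did not pass without sihnRNPA2B1 replicate 2. KLF4 did not pass the test, with 150.5, 139 and 143 CPM against 135, 141 and 147 CPM. MYC, the growth-promoting factor, fell by 0.15 on the log2 scale (SE 0.05, edgeR adjusted p = 0.0264), with 609, 611 and 633 CPM against 665, 693 and 646 CPM. MYC did not pass when replicate 1 or 2 of either group was left out. NR4A2, an orphan nuclear receptor, had at most 0.572 CPM in sihnRNPA2B1 and 0.584 CPM in sihnRNPA2B1-NC cells and was not called.

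Of the IER genes, whose products include short-lived transcriptional and survival regulators, IER5 fell, with 91.2, 97.9 and 105 CPM in sihnRNPA2B1 and 113, 120.0 and 106 CPM in sihnRNPA2B1-NC cells (log2 fold change -0.24, SE 0.06, edgeR adjusted p = 0.00521). IER3 lay below its controls in all 3 libraries, at 32.3, 32.3 and 31.8 CPM against 36.2, 36.6 and 32.5 CPM, but did not pass the test (edgeR adjusted p = 0.0983). IER2 had 54.4, 58.2 and 61.8 CPM against 54.7, 62.3 and 49.98 CPM, with overlapping groups. BTG1, an antiproliferative protein that associates with the CCR4-NOT deadenylase, was 1 of the 2 members that rose. BTG1 had 128, 133 and 137 CPM in sihnRNPA2B1 and 110.0, 109 and 103 CPM in sihnRNPA2B1-NC cells, a log2 fold change of 0.27, SE 0.06, edgeR adjusted p = 0.0005. The mRNA decay factors ZFP36 and ZFP36L1 did not pass the test. ZFP36 had 55.4, 50.7 and 56.3 CPM against 54.4, 56.8 and 55.0 CPM, and ZFP36L1 had 377, 369.8 and 372 CPM against 373, 379 and 359.7 CPM.

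The MAPK phosphatases moved in both directions. DUSP1, the abundant nuclear phosphatase with a preference for p38 and JNK, had 523, 568 and 605 CPM in sihnRNPA2B1 and 691, 741 and 662 CPM in sihnRNPA2B1-NC cells (log2 fold change -0.34, SE 0.06, edgeR adjusted p = 4.04e-05). DUSP6, the cytoplasmic ERK phosphatase, had 29.5, 30.2 and 26.4 CPM against 35.3, 37.9 and 39.0 CPM (log2 fold change -0.42, SE 0.08, edgeR adjusted p = 8.7e-05). DUSP5, the nuclear ERK phosphatase, had 48.8, 50.3 and 51.2 CPM against 61.6, 65.5 and 61.2 CPM, a fall of 0.36 on the log2 scale. DUSP4, also nuclear, was the other member that rose. DUSP4 had 12.3, 10.2 and 11.4 CPM in sihnRNPA2B1 and 7.73, 7.11 and 8.45 CPM in sihnRNPA2B1-NC cells (log2 fold change 0.51, SE 0.12, edgeR adjusted p = 0.00114). DUSP8 had 15.4, 13.1 and 14.7 CPM against 15.2, 15.7 and 13.4 CPM and overlapped its controls. DUSP2 had 3.33 to 3.46 CPM against 3.61 to 4.47 CPM, below without overlap, and was not called.

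All 4 Sprouty and SPRED genes, inhibitors that act upstream of the MAP kinases, fell. SPRY2 had 58.9, 63.4 and 65.2 CPM in sihnRNPA2B1 and 74.6, 75.2 and 77.2 CPM in sihnRNPA2B1-NC cells, and SPRY4 had 22.9, 22.4 and 24.8 CPM against 28.1, 28.5 and 25.6 CPM. SPRED1, which brings the RAS inhibitor neurofibromin to the membrane, had 57.9, 59.4 and 58.8 CPM against 72.0, 61.6 and 65.8 CPM, and its relative SPRED2 had 85.0, 90.7 and 91.0 CPM against 97.1, 94.7 and 107 CPM. None of the 4 overlapped their controls, and the log2 fold changes were -0.31, -0.26, -0.21 and -0.19, in the same order, with edgeR adjusted p between 0.000304 and 0.0146. Without sihnRNPA2B1 replicate 1 only SPRY2 of the 4 still passed, and SPRY4, SPRED1 and SPRED2 had edgeR adjusted p of 0.0665, 0.063 and 0.0931. SPRY4 also did not pass without sihnRNPA2B1 replicate 2 or sihnRNPA2B1-NC replicate 1 or 2, nor SPRED1 without sihnRNPA2B1-NC replicate 1. ETV4 and ETV5, ETS factors used as readouts of ERK activity, also fell. ETV5 had 74.8, 77.9 and 78.0 CPM against 93.3, 92.2 and 88.5 CPM (log2 fold change -0.28, SE 0.06, edgeR adjusted p = 0.000474), and ETV4, at a lower level, had 3.43, 2.64 and 4.03 CPM against 4.64, 4.75 and 4.59 CPM (log2 fold change -0.50, SE 0.17, edgeR adjusted p = 0.0248). PHLDA1, another gene downstream of ERK, was not called, with 381, 393 and 379.6 CPM against 389, 395 and 379 CPM. At an unadjusted p under 0.05 there were 24 members, against 40.1% of all genes. Counting all 35 tested members, 19 lay below and 5 above their controls with no overlap; among all genes tested 18.3% lay below and 23.7% above, 42% in all.

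**Figure D2:**
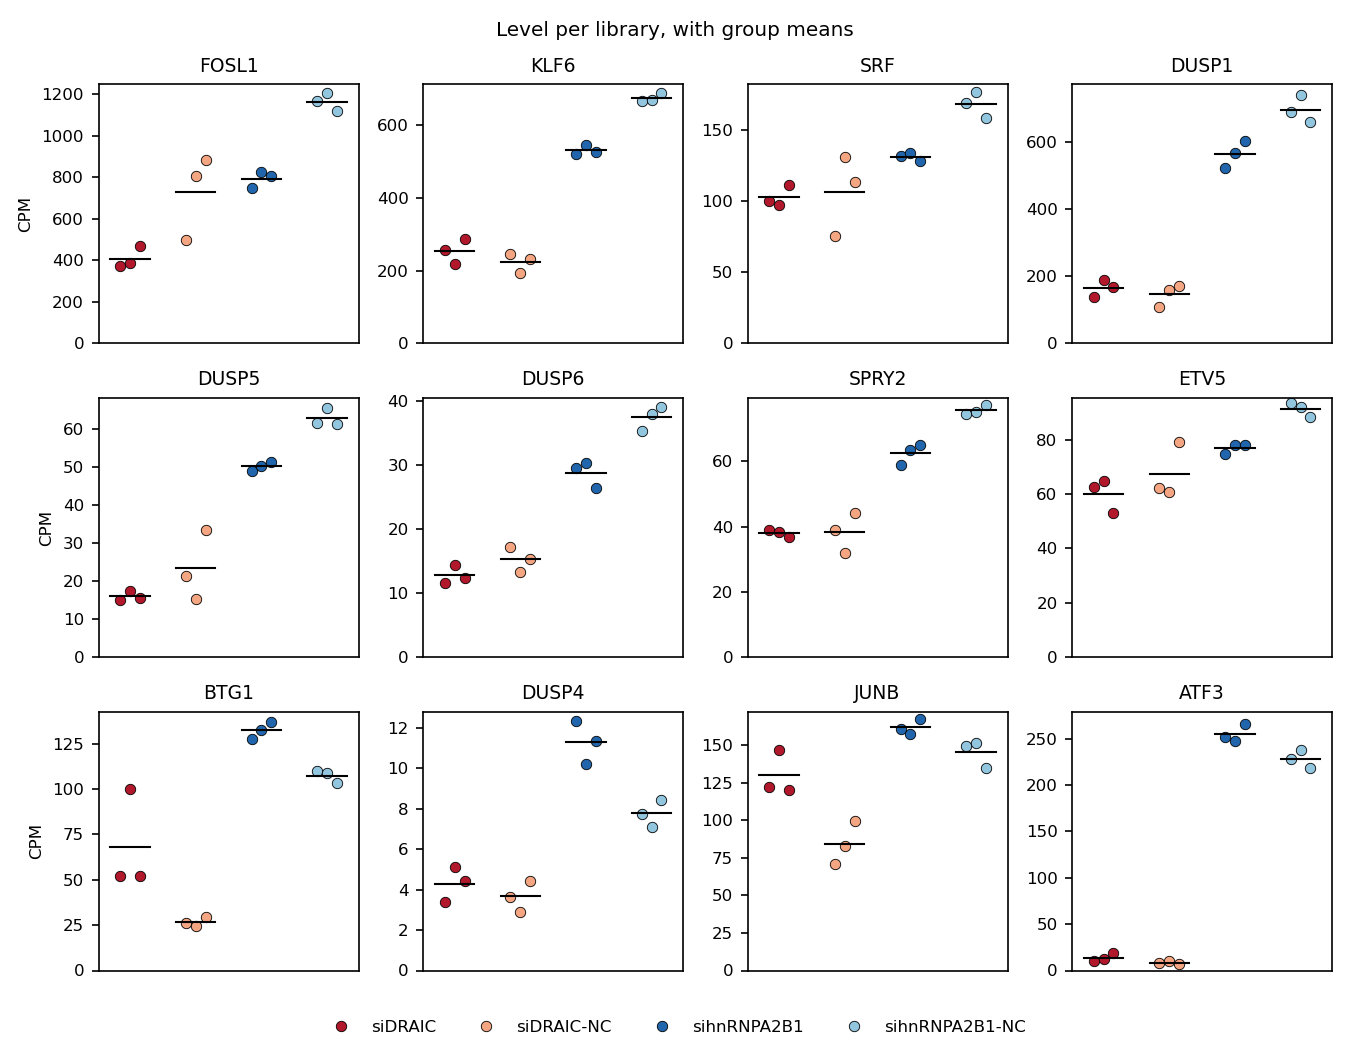
CPM (vertical axes, linear, from 0, with a scale of its own for each gene) of 12 members in each library; points are libraries, horizontal bars are group means, and groups run siDRAIC, siDRAIC-NC, sihnRNPA2B1, sihnRNPA2B1-NC from left to right. FOSL1 in all 3 sihnRNPA2B1 libraries lies below all 3 sihnRNPA2B1-NC libraries, BTG1 lies above its controls in both experiments, and ATF3 is far lower in the siDRAIC experiment than in the hnRNPA2B1 experiment.

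The calls of the hnRNPA2B1 experiment were made against the small spread of its own 6 libraries. When all 12 libraries shared 1 estimate of the spread, edgeR called 0 members in this contrast, and 1.66% of all genes. In that fit 9 members had an unadjusted p under 0.05, and the share of all genes at that threshold was not taken. Leaving out replicate 1 of sihnRNPA2B1 left 12 calls, with 20.5% of all genes called. Of the 19 calls, 10 (FOSL1, SRF, KLF6, BTG1, DUSP1, DUSP4, DUSP5, DUSP6, SPRY2 and ETV5) passed without each library in turn. The other 9 (FOSL2, KLF2, KLF10, MYC, IER5, SPRY4, SPRED1, SPRED2 and ETV4) did not pass in at least 1 of these fits.

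Promoter sequence is shown for 5 members whose window held a complete CArG box, cAMP response element or EGR site, and for BTG1, which was called in both experiments and held none. The windows are the 250 bases before the annotated start, from RefSeq on GRCh38.p14, read 5′ to 3′ on the gene's own strand. Each motif was searched on both strands, and 28 of the 38 members had windows, 37 in all. Capitals mark the CArG box of SRF in the first 2, the cAMP response element TGACGTCA in the next 2 and the EGR site GCGNGGGCG in KLF6; other motifs in a window are left in lower case.
EGR1 (chr5:138465229-138465478, plus strand): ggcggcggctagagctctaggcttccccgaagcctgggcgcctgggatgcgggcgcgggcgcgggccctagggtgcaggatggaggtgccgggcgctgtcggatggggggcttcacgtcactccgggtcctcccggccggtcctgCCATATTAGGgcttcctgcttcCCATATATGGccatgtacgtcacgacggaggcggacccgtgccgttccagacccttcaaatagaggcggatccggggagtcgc
SRF (chr6:43171019-43171268, plus strand): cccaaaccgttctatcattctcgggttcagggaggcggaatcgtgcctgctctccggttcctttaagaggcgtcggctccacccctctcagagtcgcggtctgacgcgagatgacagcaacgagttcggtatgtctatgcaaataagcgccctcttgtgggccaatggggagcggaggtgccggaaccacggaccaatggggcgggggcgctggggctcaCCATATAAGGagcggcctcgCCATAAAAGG
DUSP1 (chr5:172771196-172771445, minus strand): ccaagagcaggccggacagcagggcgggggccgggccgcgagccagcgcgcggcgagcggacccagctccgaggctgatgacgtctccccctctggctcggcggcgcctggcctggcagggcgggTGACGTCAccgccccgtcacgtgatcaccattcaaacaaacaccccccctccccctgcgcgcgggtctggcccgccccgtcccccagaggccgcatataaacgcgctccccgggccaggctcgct
DUSP8 (chr11:1572272-1572521, minus strand): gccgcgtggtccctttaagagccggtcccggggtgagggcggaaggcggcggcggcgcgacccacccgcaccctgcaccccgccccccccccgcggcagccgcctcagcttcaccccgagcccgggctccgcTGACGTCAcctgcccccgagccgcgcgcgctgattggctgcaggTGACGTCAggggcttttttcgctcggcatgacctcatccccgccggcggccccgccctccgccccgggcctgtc
KLF6 (chr10:3785210-3785459, minus strand): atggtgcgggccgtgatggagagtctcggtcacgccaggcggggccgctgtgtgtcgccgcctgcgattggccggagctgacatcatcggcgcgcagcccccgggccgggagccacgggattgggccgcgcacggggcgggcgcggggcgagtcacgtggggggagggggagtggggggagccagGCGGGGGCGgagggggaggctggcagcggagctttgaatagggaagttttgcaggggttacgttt
BTG1 (chr12:92145847-92146096, minus strand): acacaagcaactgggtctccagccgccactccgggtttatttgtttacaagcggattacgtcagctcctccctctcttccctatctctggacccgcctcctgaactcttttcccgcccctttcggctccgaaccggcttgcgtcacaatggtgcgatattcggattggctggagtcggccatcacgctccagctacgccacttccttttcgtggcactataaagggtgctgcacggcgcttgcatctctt
A CArG box was found in 3 of the 37 windows, those of EGR1, EGR2 and SRF, and in 1.16% of the 35116 promoter windows of all genes. EGR1 held 2. SRF has 2 windows, and the window shown held 2 CArG boxes while the other held none. The cAMP response element was found in 4 windows, of JUND, ZFP36L1, DUSP1 and DUSP8, against 1.65% of all windows. The EGR site was found in 8 windows, of EGR1, SRF, KLF2, KLF4, KLF6, DUSP2, SPRY2 and SPRY4, against 8.41% of all windows. The site GGGGCGGGG, bound by SP and KLF factors, was found in 10 windows, against 15.1%, and can overlap an EGR site. The AP-1 site TGANTCA was found in 0 of the 37 windows and in 6.57% of all windows; longer-range sites lie outside these windows. The cAMP response element and the CArG box were each held by called and uncalled members of the hnRNPA2B1 experiment: of the 4 with a cAMP response element DUSP1 fell and JUND, ZFP36L1 and DUSP8 were not called, and of those with a CArG box SRF fell, EGR1 was not called and EGR2 was not tested. The EGR site was held by SRF, KLF2, KLF6, SPRY2 and SPRY4, which fell, and by EGR1, KLF4 and DUSP2, which were not called. A match is a string of letters, not a measured site.

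In the siDRAIC experiment 1 member was called. BTG1 rose, with 52.0, 100.3 and 52.2 CPM in the libraries labelled siDRAIC and 26.4, 24.7 and 29.6 CPM in those labelled siDRAIC-NC, a log2 fold change of 1.33, SE 0.27, edgeR adjusted p = 0.0476. Of 36 members tested this is 2.78%, where 0.713% of all 15986 genes were called, 0.582% higher and 0.131% lower. At an unadjusted p under 0.05 there were 7 members, BTG1, FOSL1, JUNB, FOSB, ATF3, SPRY4 and SPRED2, against 10.7% of all genes. The median log2 fold change of the members was 0.03, against -0.00 for all genes, with 20 estimates above 0 and 16 below. Without siDRAIC-NC replicate 1 the members' median was -0.06, against 0.05 for all genes, with 15 estimates above 0 and 21 below. In that fit 8 members had an unadjusted p under 0.05, and 6.26% of all genes passed at the adjusted threshold, against 0.713% with every library. The share of all genes at the unadjusted threshold was not taken there, so the 8 cannot be read as particular to the members. BTG1 is a protein-coding gene at chr12:92140278-92145897 on the minus strand (GRCh38, GENCODE 29). Its exons overlap those of the long non-coding gene LINC01619 on the same strand and AC025164.1 on the other, and the labels name neither the counting program nor its use of strand, so reads of these genes may not be separable.

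Same-numbered libraries deviated together in this experiment, most clearly those of replicate 1, and the labels do not say that they were paired. With the replicate number as a block edgeR called 5 members, against 8.78% of all genes. BTG1, JUNB and ATF3 were then higher, with log2 fold changes of 1.25, 0.61 and 0.64 and adjusted p of 2.07e-11, 0.00143 and 0.0242. FOSL1 and DUSP2 were lower, with log2 fold changes of -0.83 and -0.69 and adjusted p of 8.87e-07 and 0.0426. Abundant members had almost the same SE in the blocked fit, 0.142 for FOSL2, 0.143 for MYC and 0.144 for FOSL1. Without the block these were 0.168, 0.164 and 0.222. The blocked p-values therefore rest mainly on a spread shared by all genes, not on each gene's own libraries, and may be too small. FOSL1 had 372, 385 and 468 CPM in siDRAIC and 499, 806 and 883 CPM in siDRAIC-NC libraries, groups that did not overlap, and in the unblocked fit it had an estimate of -0.87, SE 0.22, edgeR adjusted p = 0.115. JUNB had 122, 147 and 120.3 CPM against 70.7, 82.9 and 99.6 CPM, above the controls in each library. ATF3 had 9.89, 12.4 and 18.4 CPM against 7.67, 10.1 and 7.42 CPM, with overlapping groups. FOSB, a scarce FOS-family subunit here, had 1.39, 2.92 and 2.14 CPM against 1.02, 1.33 and 0.979 CPM, above the controls in each library, and was called neither with the block nor without it. DUSP2, a phosphatase of ERK and p38, had 2.49, 3.60 and 5.03 CPM against 3.24, 6.06 and 9.02 CPM, lower in each numbered pair although the groups overlapped.

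The remaining members of this experiment did not pass the test in either fit. SPRY4 was called in 1 fit of all 12 libraries, where 3.89% of all genes were. SPRY4 had 11.2, 9.24 and 8.24 CPM in siDRAIC and 13.3, 12.02 and 16.1 CPM in siDRAIC-NC libraries, and SPRED2 had 64.6, 58.5 and 60.7 CPM against 77.8, 71.1 and 81.5 CPM. JUN had 208, 205 and 174 CPM against 233, 220.1 and 216 CPM and ETV4 had 8.17, 8.37 and 5.27 CPM against 9.03, 9.07 and 11.3 CPM. These 4 members lay below their controls in all 3 libraries, as did FOSL1. In all, 5 members lay below and 3 (BTG1, FOSB and JUNB) above with no overlap, where 5.86% of all genes lay below and 9.75% above. DUSP1 had 139, 190.4 and 167 CPM against 110.1, 159 and 172 CPM and MYC had 217, 257 and 213 CPM against 219, 230.1 and 249 CPM, both with overlapping groups. The other 24 tested members had log2 fold changes between -0.57 (DUSP5) and 0.85 (EGR2).

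Among these, the transcription factors showed overlapping groups throughout. FOSL2 had 272, 322 and 328 CPM in siDRAIC and 272, 321 and 330.4 CPM in siDRAIC-NC libraries, JUND had 90.3, 109 and 63.8 CPM against 78.0, 71.4 and 80.2 CPM, and SRF had 100.1, 97.2 and 111 CPM against 75.2, 131 and 113 CPM. KLF4 had 14.99, 18.0 and 27.7 CPM against 12.01, 13.6 and 16.0 CPM, KLF6 had 255, 219 and 286 CPM against 245, 193 and 231 CPM, KLF10 had 86.5, 92.6 and 116 CPM against 95.4, 91.1 and 101 CPM and KLF2 had 5.32, 4.47 and 3.59 CPM against 4.09, 4.61 and 4.28 CPM. All 4 KLF estimates lay above 0, between 0.01 and 0.51 on the log2 scale, with KLF4 the highest (edgeR adjusted p = 0.495).

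Apart from BTG1 and ETV4, the IER, mRNA decay, phosphatase and output genes overlapped their controls as well. IER2 had 24.7, 25.7 and 21.6 CPM in siDRAIC and 17.7, 21.7 and 22.9 CPM in siDRAIC-NC libraries, IER3 had 27.1, 32.5 and 23.5 CPM against 22.5, 25.9 and 26.9 CPM and IER5 had 55.3, 59.3 and 50.1 CPM against 47.7, 49.1 and 61.2 CPM. ZFP36 had 21.4, 26.1 and 19.9 CPM against 23.8, 25.8 and 24.8 CPM and ZFP36L1 had 369, 384 and 269 CPM against 321, 272 and 277 CPM. The ERK phosphatases DUSP5 and DUSP6 had estimates below 0 (log2 fold changes -0.57 and -0.27, edgeR adjusted p = 0.471 and 0.687). DUSP5 had 15.1, 17.4 and 15.6 CPM against 21.2, 15.3 and 33.5 CPM and DUSP6 had 11.5, 14.3 and 12.3 CPM against 17.2, 13.2 and 15.3 CPM. DUSP4 and DUSP8 had estimates above 0 (0.22 and 0.09), with 3.38, 5.10 and 4.41 CPM against 3.63, 2.91 and 4.43 CPM for DUSP4 and 2.77, 2.46 and 2.57 CPM against 2.07, 2.66 and 2.42 CPM for DUSP8. The last 4 members with calls elsewhere also overlapped their controls here. SPRY2 had 39.0, 38.5 and 36.9 CPM against 38.9, 31.8 and 44.3 CPM, SPRED1 had 47.2, 41.2 and 45.9 CPM against 48.7, 37.5 and 41.4 CPM, ETV5 had 62.7, 64.7 and 53.0 CPM against 62.1, 60.8 and 79.2 CPM and PHLDA1 had 288, 275 and 276 CPM against 286, 217 and 247 CPM.

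EGR1 varied more within these groups than any other member of at least 1 CPM. Its coefficient of variation was 88.0% in siDRAIC and 54.5% in siDRAIC-NC libraries. EGR1 had 2.44, 9.82 and 2.35 CPM in siDRAIC libraries and 3.24, 8.82 and 4.28 CPM in siDRAIC-NC libraries. Replicate 2 was the highest library of both groups. FOS, induced by the same stimuli, was also highest in replicate 2 of both, with 0.388, 0.889 and 0.375 CPM in siDRAIC and 0.568, 0.751 and 0.515 CPM in siDRAIC-NC libraries. FOS rested on 14 to 38 counts in a library.

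The call of BTG1 in the siDRAIC experiment was not stable. Its edgeR adjusted p was 0.0769, 0.2496 and 0.185 when replicates 1, 2 and 3 of siDRAIC-NC were left out in turn. It was 0.174 and 0.0897 when replicates 2 and 3 of siDRAIC were left out. With all libraries DESeq2 called BTG1 and FOSL1, against 2.16% of all genes. Without siDRAIC-NC replicate 1, FOSL1 became the 1 member called, while 6.26% of all genes were called.

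With all libraries and the filter on low counts, the effects of the 2 siRNAs were not shown to differ for any single member. The difference between the effects, the siDRAIC log2 fold change minus that of hnRNPA2B1 siRNA, was called for 0 of 36 members by edgeR, against 0.211% of all genes (0.105% higher and 0.105% lower). DESeq2 also called 0, and 4 members had an unadjusted p under 0.05, against 9.13% of all genes. These were BTG1 with a difference of 1.02, FOSB with 0.97, KLF6 with 0.51 and JUNB with 0.43. The members' median difference was 0.14, against -0.05 for all genes, with 27 estimates above 0 and 9 below. Without siDRAIC-NC replicate 1 the members' median difference was 0.10, against -0.02 for all genes, with 20 above 0 and 16 below. The members were not tested as a set. Without siDRAIC-NC replicate 1 the difference passed for 1 member, FOSL1, and with no filter on low counts for 1 member, BTG1. Of all genes 1.98% and 0.779% were called in those fits, in the same order. FOSL1 had log2 fold changes of -0.87 in the siDRAIC and -0.59 in the hnRNPA2B1 experiment, and its difference was -0.32 with an SE of 0.26.

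**Figure D3:**
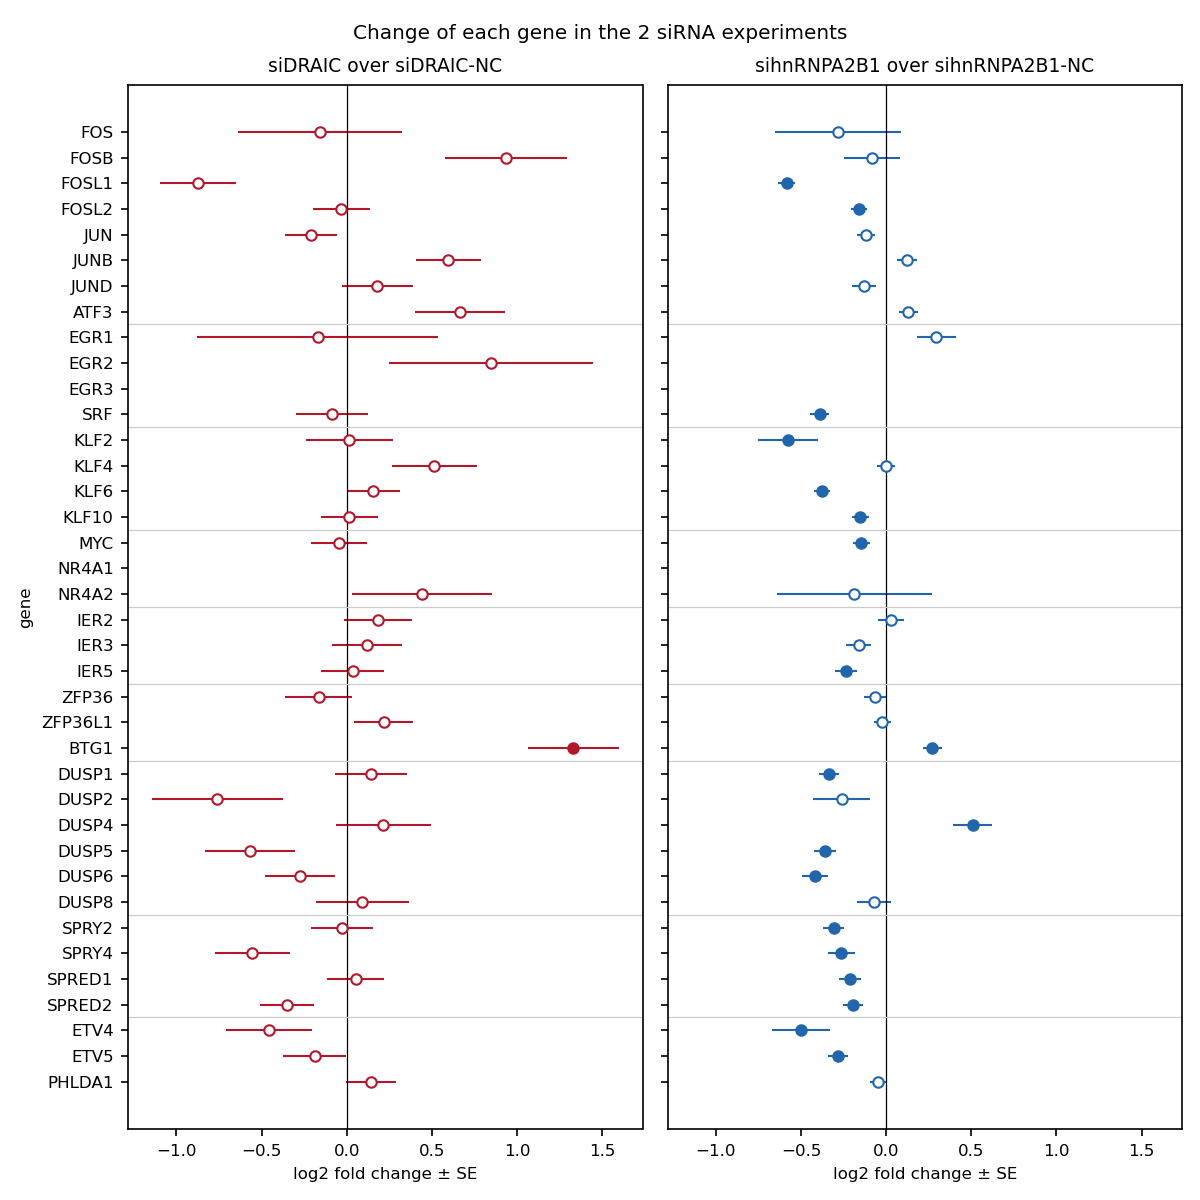
Log2 fold change of each tested member with its standard error (horizontal axes, the same scale in both panels), for siDRAIC over siDRAIC-NC on the left and sihnRNPA2B1 over sihnRNPA2B1-NC on the right; filled points passed the edgeR test, grey lines separate the roles, and untested members have no point. In the hnRNPA2B1 panel 29 of 35 points lie left of 0, mostly with short error bars, and in the siDRAIC panel BTG1 is the 1 filled point.

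The largest differences in the gene set lay between the 2 control groups. In siDRAIC-NC against sihnRNPA2B1-NC libraries, edgeR called 30 of 36 members, 29 of them lower and 1 higher, and 51.6% of all 17091 genes, 25% lower and 26.6% higher. The median log2 fold change of the members was -0.94, against 0.02 for all genes. There were 29 members below and 2 above with no overlap, where 28.6% of all genes lay below and 29.2% above, 57.8% in all. At an unadjusted p under 0.05 there were 30 members, against 57.1% of all genes. These groups come from different experiments. The labels do not say whether both used the same control siRNA, so experiment and control siRNA cannot be told apart.

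ATF3, at chr1:212565334-212620777 on the plus strand (GRCh38, GENCODE 29), differed most. It had 7.67, 10.1 and 7.42 CPM in siDRAIC-NC and 228, 237 and 218 CPM in sihnRNPA2B1-NC libraries, a log2 fold change of -4.74, SE 0.22, edgeR adjusted p = 8.09e-10. KLF4, a factor shared by stress and stem cell programmes, had 12.01, 13.6 and 16.0 CPM against 135, 141 and 147 CPM (log2 fold change -3.32, SE 0.20, edgeR adjusted p = 8.12e-09). The phosphatases DUSP8 and DUSP1 followed. DUSP8 had 2.07, 2.66 and 2.42 CPM in siDRAIC-NC and 15.2, 15.7 and 13.4 CPM in sihnRNPA2B1-NC libraries, and DUSP1 had 110.1, 159 and 172 CPM against 691, 741 and 662 CPM. Their log2 fold changes were -2.61 and -2.22. JUN, BTG1 and FOSB differed by -2.04, -1.98 and -1.93 on the log2 scale, and KLF10, KLF6 and MYC by -1.78, -1.58 and -1.50. Each of these 10 genes was below every sihnRNPA2B1-NC library in every siDRAIC-NC library.

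Each of the 9 roles had members that were lower in siDRAIC-NC libraries. All 3 IER genes, all 3 genes of mRNA decay and growth, all 4 Sprouty and SPRED inhibitors, 7 of 8 AP-1 subunits and 5 of 6 phosphatases were lower. DUSP5, DUSP6 and DUSP4 had log2 fold changes of -1.42, -1.29 and -1.07. SPRY4, SPRY2, SPRED1 and SPRED2 had log2 fold changes of -0.98, -0.97, -0.64 and -0.36. IER2, IER5 and IER3 had log2 fold changes of -1.40, -1.08 and -0.47. ZFP36 and ZFP36L1 had log2 fold changes of -1.14 and -0.35. The remaining AP-1 subunits FOSL2, JUNB, FOSL1 and JUND were lower by smaller amounts, with log2 fold changes of -0.92, -0.76, -0.65 and -0.54. SRF, PHLDA1 and ETV5 had log2 fold changes of -0.63, -0.63 and -0.42.

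ETV4 was the exception. It had 9.03, 9.07 and 11.3 CPM in siDRAIC-NC and 4.64, 4.75 and 4.59 CPM in sihnRNPA2B1-NC libraries, a log2 fold change of 1.09, SE 0.21, edgeR adjusted p = 0.000544; its exons overlap those of DHX8 on the other strand. FOS, EGR1, EGR2, KLF2, NR4A2 and DUSP2, all among the less abundant members, were not called. KLF2, which protects quiescent cells from inflammatory signals in endothelium, had 4.09, 4.61 and 4.28 CPM in siDRAIC-NC and 4.03, 3.51 and 3.81 CPM in sihnRNPA2B1-NC libraries, above without overlap but not past the test (edgeR adjusted p = 0.364). The calls of ZFP36L1, JUND and IER3 depended on single libraries. ZFP36L1 had an edgeR adjusted p of 0.0557 and 0.066 when siDRAIC-NC replicates 2 and 3 were left out in turn, and of 0.0612 when sihnRNPA2B1-NC replicate 1 was left out. Leaving out sihnRNPA2B1-NC replicate 2 put all 3 genes at 0.0527 to 0.0759. Without siDRAIC-NC replicate 1, 31 members were called, with 55.2% of all genes called in that fit.

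**Figure D4:**
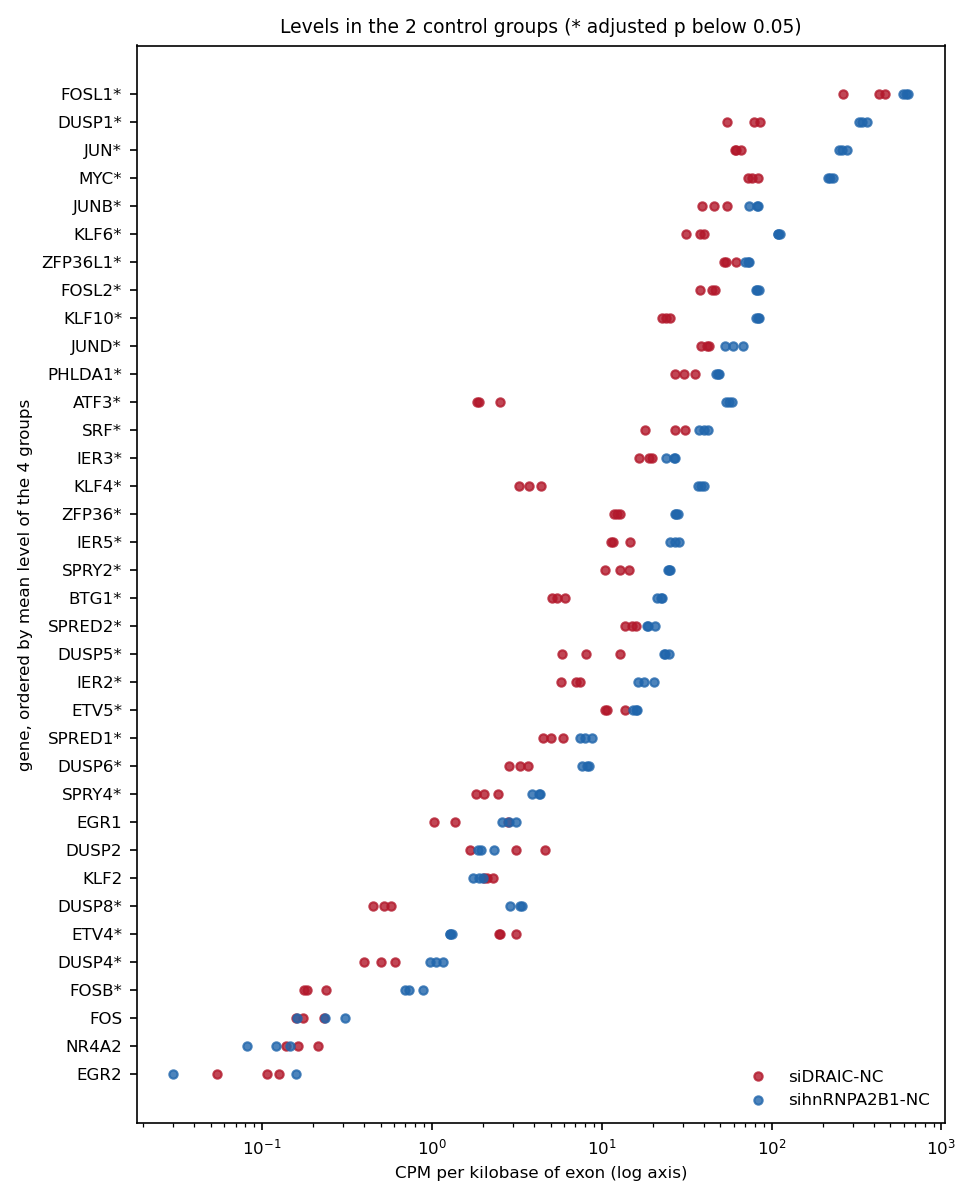
CPM per kilobase of exon (horizontal axis, logarithmic) of the 36 tested members in each siDRAIC-NC and sihnRNPA2B1-NC library, 1 point a library, ordered by mean level; an asterisk marks an edgeR adjusted p under 0.05, and the EGR2 library at 0 cannot be drawn. ATF3 shows the widest gap, at 1.84 to 2.50 CPM per kb in siDRAIC-NC and 53.9 to 58.7 CPM per kb in sihnRNPA2B1-NC libraries, and ETV4 is the called member that is higher in siDRAIC-NC.

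Genes around the members were examined as 6 lists of 107 pathway genes in all, also chosen with earlier results of these data known. In the hnRNPA2B1 experiment, where 30.4% of all genes were called, 15.4% lower and 15.1% higher, 68% of the tested further immediate early genes and 57.9% of the further feedback and ERK output genes were called. Of 25 tested further immediate early genes 12 fell and 5 rose (median log2 fold change -0.19), and of 19 further feedback and ERK output genes 9 fell and 2 rose (median -0.20). Named by smallest p, ID1, an inhibitor of basic helix-loop-helix factors, rose by 0.97, GADD45B, a stress-response activator of p38 and JNK signalling, fell by 0.73, SGK1 fell by 0.63 and NFKBIZ, a nuclear cofactor of NF-kB, rose by 0.44 on the log2 scale. SOCS3, which restrains cytokine receptors, fell by 0.83, the G1 cyclin CCND1 by 0.51, the cytokine LIF by 0.52 and the receptor EPHA2 by 0.40. Of 15 kinases and factors directly upstream of immediate early genes, 7 fell and 3 rose. The ternary complex factor ELK3 fell by 0.54, the RSK kinase RPS6KA2 by 0.77 and the MSK kinase RPS6KA4 by 0.37, and the SRF cofactor MRTFB rose by 0.41.

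Of 20 genes of the ERK cascade core 5 rose and 2 fell after hnRNPA2B1 siRNA, 35% of the list against 30.4% of all genes. MAPK3, which encodes ERK1, rose by 0.67, the RAS exchange factor SOS1 by 0.39 and the RAS GTPase-activating protein RASA1 by 0.33, and HRAS fell by 0.29 on the log2 scale. Of 15 tested genes of the JNK and p38 cascades 4 rose and 3 fell, 46.7% of the list. The p38 kinase kinase MAP2K3 fell by 0.85, MAPK12 by 0.22 and the JNK gene MAPK8 by 0.20, and the kinase kinase kinase MAP3K7 rose by 0.26. Of 9 tested genes for EGF-family ligands and receptors 5 rose and 2 fell. The ligand HBEGF fell by 0.56 and the receptor EGFR by 0.25, and the ligands AREG and BTC rose by 0.41 and 0.47. In 1 fit of all 12 libraries each of the 6 lists had between 0 and 2 calls in this contrast, where 1.66% of all genes were called. Leaving out sihnRNPA2B1-NC replicate 3 gave 11 calls in the ERK list, leaving out sihnRNPA2B1 replicate 1 or 2 gave 3 and sihnRNPA2B1-NC replicate 1 gave 4 in the JNK and p38 list, and leaving out sihnRNPA2B1-NC replicate 1 gave 4 in the EGF list. Of all genes 33.9% were called without sihnRNPA2B1-NC replicate 3, and 20.5% to 21.9% in the other fits named here. In the siDRAIC experiment SGK1 was the 1 pathway gene called, higher by 1.41 on the log2 scale, among 102 tested. Its call did not pass when replicate 2 or 3 of siDRAIC, or any 1 of the 3 siDRAIC-NC libraries, was left out. With the replicate block 21 of the 102 were called there, where 8.78% of all genes were, 9 of them in the list of 19 further feedback and ERK output genes, 6 lower and 3 higher. Without siDRAIC-NC replicate 1 the same list had 7 calls, where 6.26% of all genes were called. Between siDRAIC-NC and sihnRNPA2B1-NC libraries, 21 of 25 further immediate early genes were called, 14 lower and 7 higher, and all 9 EGF-family genes, 6 lower and 3 higher. Of all genes 51.6% were called in that comparison, 25% lower and 26.6% higher.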

How the data were processed

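RNA-seq was done on 12 libraries of 769-P cells, 3 in each of 4 groups taken from the labels. Per the submitters' processing notes, fastp 0.23.2, STAR 2.7.10a, StringTie and DESeq2 were used with genome build hg38; they name no counting program, annotation or strand setting. The authors deposited whole-number counts per Ensembl gene ID in 2 tables, 1 for each experiment, with 60617 IDs; 60261 of these matched a symbol. Replicates were separate columns, and no pair of libraries within a group was a duplicate. Pairs across groups were not part of that check.

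The members and gene lists were chosen with earlier results of these data known. Genes passed edgeR's filterByExpr with a minimum count of 10, library sizes were scaled by TMM, and edgeR 4.0.16 (R 4.3.3) quasi-likelihood tests were run over all genes of an experiment, with Benjamini-Hochberg adjustment and a threshold of 0.05. The difference between the effects and the comparison of control groups used all 12 libraries in 1 fit. The deposited tables are raw counts, so libraries of both could be scaled together. CPM is a count divided by the library's total and scaled to 1e+06, without the TMM factors of the tests. Whether groups overlapped was read from CPM, for members and for all genes, so narrow gaps could close after TMM scaling. CPM per kb divides CPM by the union of a gene's GENCODE 29 exons. The tests were tested on simulated data made from these libraries. In the siDRAIC experiment same-numbered libraries deviated together (correlations of 0.489, 0.227 and 0.277 across genes, against -0.409 to 0.103 for other pairs). Each deviation was taken from the mean of its own group of 3 libraries. A higher correlation for 1 pair therefore goes with lower ones for other pairs by construction, and the pairing was not tested. The numbers were used as pairs only in the replicate block, an alternative fit. The main siDRAIC test did not use them.

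A member was given with its value in each library when it was called in any of the 4 tests, was among the 5 smallest p of a siRNA experiment, or among the 5 highest levels; others by ranges. Of each pathway list, up to 4 called genes with the smallest p in each siRNA experiment were named. Alternatives were RLE size factors, DESeq2 1.42.0, no filter, the replicate block, 1 fit of all 12 libraries and leaving out each library.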

Additional observations from a re-analysis of the deposited data

Results flagged for a closer look

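SGK1, a serum- and glucocorticoid-induced kinase from the list of further immediate early genes, was the 1 pathway gene whose response differed between the 2 experiments by a test of the difference itself. The siDRAIC effect minus the hnRNPA2B1 siRNA effect was 2.01 on the log2 scale (SE 0.33, edgeR adjusted p = 0.0231). SGK1 averaged 80.5 ± 39.4 CPM in siDRAIC and 29.6 ± 0.124 CPM in siDRAIC-NC libraries, and 58.7 ± 5.52 CPM in sihnRNPA2B1 and 88.9 ± 2.46 CPM in sihnRNPA2B1-NC libraries (SD, n = 3 each). Its log2 fold changes were 1.41 (edgeR adjusted p = 0.0462) and -0.63 (edgeR adjusted p = 1.76e-08). The difference passed in 8 of 16 alternatives, with adjusted p between 7.21e-18 and 0.105; it did not pass without siDRAIC-NC replicate 2 (0.0548), siDRAIC-NC replicate 3 (0.0547) or any 1 of the 6 libraries of the hnRNPA2B1 experiment (0.0581 to 0.105).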

How the results depend on the processing

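No member called in the report changed direction under the alternatives run, but uncalled estimates did: 14 of 36 in the siDRAIC experiment, the largest of them 0.18 in size on the log2 scale in the report, 4 of 35 in the hnRNPA2B1 experiment and 11 of 36 for the difference changed sign in at least 1. The members' median in the siDRAIC experiment, 0.03 in the report with 20 estimates above 0 and 16 below, was between -0.06 and 0.09, and 15 lay above and 21 below without siDRAIC replicate 2 or siDRAIC-NC replicate 1. Of the members called in the siDRAIC experiment, 1 in the report, RLE size factors left 0 (BTG1 at an adjusted p of 0.0521), DESeq2 and no filter each gave 2, the replicate block 5, 1 fit of all 12 libraries 4, and leaving out a library 0 to 1. The share of all genes called also moved. It was 0.713% in the report, 0.507% with RLE size factors, 2.16% with DESeq2, 1.69% with no filter, 8.78% with the block and 3.89% in 1 fit of all 12 libraries. Leaving out a library gave 0.0542% to 6.26%. Of the 19 in the hnRNPA2B1 experiment, 1 fit of all 12 libraries left 0, with 1.66% of all genes called. Leaving out a library left 12 to 22, with 20.5% to 33.9% of all genes called. The shared estimate of the spread includes the more variable siDRAIC experiment by its construction. The difference between the effects, 0 in the report with 0.211% of all genes called, gave 1 with no filter and 0 to 1 when a library was left out. Of all genes 0.779% were called with no filter and 0.0507% to 1.98% when a library was left out. The comparison of control groups gave 27 to 32, against 30 in the report with 51.6% of all genes called. The 27 came without sihnRNPA2B1-NC replicate 2, where 44.6% of all genes were called. The 32 came with no filter, where 26.5% of a larger set of 33780 genes were called.

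In the hnRNPA2B1 experiment same-numbered libraries had correlations of -0.0117, -0.0242 and -0.0456, so the numbers there share only a number; the replicate block gave 17 calls and 2 members, KLF10 and MYC, were above the threshold at 0.061 to 0.0617. The block called 28.1% of all genes in that experiment. It left the difference at 0 members, with 1.51% of all genes called.

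The precision is limited by 3 libraries a group, by the larger spread of the siDRAIC experiment and, for EGR3, NR4A1, EGR2 and FOS, by low counts.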
